A study of Drosophila melanogaster with 8 samples.

Results

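The question was which ovarian transcripts responded differently to the depletion of RnpS1 and to the loss of Piwi. For every gene and transposon family, the log2 change in the piwi mutant against its own control was subtracted from the log2 change in the RnpS1 knockdown against its own control. A positive difference of changes means that the knockdown change was the higher on the log2 scale, and a negative one that the mutant change was. All 15682 genes, 123 transposon families and 8 libraries of the data set entered, and 10434 genes and all 123 families had enough counts to be tested. The groups held 2 libraries each, from ovaries of adults aged 4 to 6 days. The mutant carried the alleles piwi1/piwi2 and its control only the germline driver nos-GAL4-VP16. The knockdown combined a double-stranded RNA against RnpS1 under tj-GAL4, which drives expression in somatic follicle cells, with a short hairpin RNA under nos-GAL4-VP16, and its control carried both drivers without either RNA. The drivers limit the knockdown to the cells in which they act, whereas the piwi alleles are present in every cell, and the controls differ from each other by tj-GAL4 and by whatever else separates the stocks.

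Piwi is an Argonaute protein that enters the nucleus with Piwi-interacting RNAs (piRNAs) and silences transposons that match them, in both germ cells and follicle cells. RnpS1 belongs to the exon junction complex and the ASAP complex, which mark spliced transcripts, and in the fly ovary these factors are known to be needed for the removal of some introns, among them one in the piwi transcript and long introns such as those of rl, which encodes the MAP kinase.

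Gene counts summed to between 37426999 and 86692865 per library. Levels are given per library in CPM, the count scaled to the library's total of gene counts, in the order replicate 1 and replicate 2, and log2 changes come from the fit, which also scales by TMM factors between 0.943 and 1.06. Errors of log2 values are standard errors (SE), and p-values are those of the edgeR quasi-likelihood fit, adjusted by Benjamini-Hochberg, with a threshold of 0.05. Separate animals for each library are not stated in the labels, so these p-values measure the spread between libraries, which may be technical. For families the fit drew this spread almost wholly from all families together, with 1174.7 prior against 4 residual degrees of freedom. A family's own spread therefore hardly entered its p-value or SE, whereas genes had 3.03 prior against 4 residual degrees of freedom. Ovary markers were abundant in all libraries: the 19 tested genes of the oocyte axis list summed to between 10340.3 and 13209.6 CPM. Chorion genes, expressed by late follicle cells, summed to 39.5 and 1472 CPM in the mutant, 9193 and 7627 in its control, 3464 and 10593 in the knockdown and 7629.8 and 16688 in its control.

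The targeted genes check the labels. Transcripts of RnpS1 stood at 49.97 and 41.05 CPM in the mutant, 41.7 and 35.9 in its control, 8.75 and 3.78 in the knockdown and 44.999 and 39.6 in its control. The knockdown libraries were the lowest of the 8 and did not overlap any other group. Its log2 change was −2.88 in the knockdown (adjusted p = 0.0207) and 0.07 in the mutant (adjusted p = 0.907). The difference of changes, −2.95 (SE 0.493), had an adjusted p of 0.0637 and missed the threshold, although its unadjusted p was 5.43e-04; without knockdown library 1 it was −3.65 (adjusted p = 0.0146) and without knockdown library 2 it was −2.49 (adjusted p = 0.0393). Without any other single library the adjusted p missed the threshold, at up to 0.231 without mutant control library 2, and DESeq2 gave 1.44e-07.

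Transcripts of piwi itself stood at 202 and 193 CPM in the mutant, 316 and 312 in its control, 189 and 156 in the knockdown and 414 and 337 in its control. Both perturbed groups lay below both controls. The change was −0.83 in the mutant (adjusted p = 0.0185) and −1.24 in the knockdown (adjusted p = 0.0149). These changes were not distinguished: their difference was −0.41 (SE 0.187, 95% interval −0.85 to 0.03, adjusted p = 0.359). The MAP kinase gene rl stood at 200.5 and 183 CPM in the mutant, 139 and 184 in its control, 128 and 79.3 in the knockdown and 208 and 133 in its control. The knockdown libraries were the lowest of the 8, and the other groups overlapped. The difference was −0.92 (SE 0.395, adjusted p = 0.332).

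Transposon transcripts separated the perturbations more than genes did. Transposon counts per 100 gene counts were 12.1 and 10.7 in the mutant, 0.880 and 0.574 in its control, 2.40 and 1.57 in the knockdown and 0.644 and 0.676 in its control. Both mutant libraries were above both knockdown libraries, and these above all 4 controls. Group means gave a ratio to control of 15.7 in the mutant and 3.01 in the knockdown. The log2 difference of changes of this total was −2.38, and over the 16 ways of taking 1 library per group it ran from −3.18 to −1.71. Within either comparison, an exact permutation test of 2 libraries against 2 cannot go below a two-sided p of 0.333. No test was run on this single value.

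Of the 123 families, 47 had a difference of changes past the threshold, or 38.2%, and 46 of these, or 37.4% of those tested, were on the side of the mutant. All 46 kept a negative sign in each of the 16 combinations of 1 library per group. The median over all families was −1.06, with 110 negative and 13 positive values. In the mutant 77 families rose, or 62.6%, and in the knockdown 22 rose, or 17.9%, with 2 families falling in the mutant and 0 in the knockdown. Of the 46, 32 rose in the mutant with no call in the knockdown, 12 rose in both, and 2 (Helitron and G7) were called in neither. When genes and families shared 1 fit and 1 adjustment, 23 families were called, although 61 had an unadjusted p under 0.05 against 58 in the fit of families alone. The count also moved with the scaling, since factors taken from the families themselves, which set the typical family change to none, gave 18 higher and 16 lower.

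**Figure D1:**
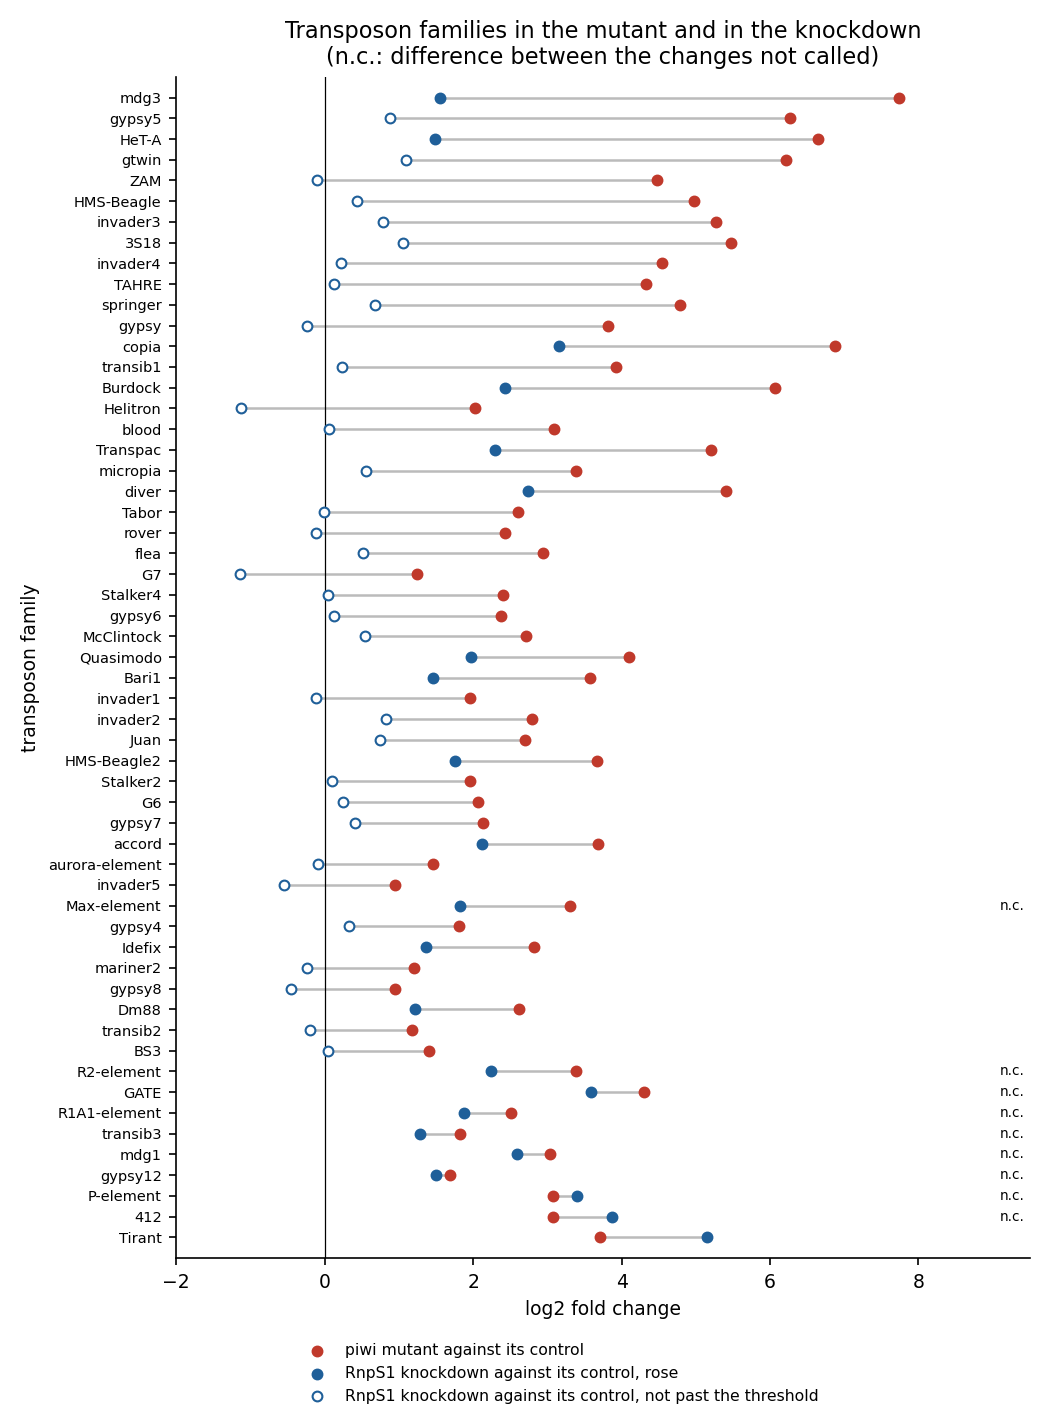
Log2 fold change of each transposon family whose difference of changes was called or that rose in both comparisons, for the piwi mutant against its control (red) and the RnpS1 knockdown against its control (blue, filled where it rose past the threshold). Red points are filled whether or not they passed. Most lines run from a mutant value well above 0 to a knockdown value near it, as for ZAM (4.48 and −0.10), while 412, P-element and Tirant lie higher in the knockdown.

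The largest differences belonged to retrotransposons with long terminal repeats (LTR) and to telomeric elements. The LTR element mdg3 stood at 15805 and 10153 CPM in the mutant, 72.3 and 36.9 in its control, 71.04 and 64.3 in the knockdown and 17.2 and 25.3 in its control. Both mutant libraries were far above the rest, and the knockdown libraries lay within the range of the mutant's control and above their own. It rose in both comparisons, by 7.73 and 1.56, with a difference of −6.18 (SE 0.833, adjusted p = 3.23e-11). HeT-A, which maintains fly telomeres by copying itself onto chromosome ends, stood at 6860.02 and 5344 CPM in the mutant, 59.4 and 49.4 in its control, 100.03 and 214 in the knockdown and 39.6 and 64.3 in its control. The mutant libraries did not overlap any others; HeT-A rose by 6.65 in the mutant and 1.49 in the knockdown, with a difference of −5.16 (SE 0.771, adjusted p = 1.19e-09). Its telomeric partner TAHRE stood at 949.8 and 722 CPM in the mutant, 44.1 and 30.5 in its control, 47.002 and 71.6 in the knockdown and 52.4 and 47.7 in its control. Here the knockdown libraries overlapped their controls, with changes of 4.32 and 0.13 and a difference of −4.19 (SE 0.653, adjusted p = 4.81e-09).

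Elements known from the literature to be active in follicle cells, among them the endogenous retroviruses gypsy, ZAM, Idefix and gtwin, were all higher in the mutant than in its control. Of the 8 on that list, 7 had a called negative difference and 1, Tirant, a called positive one, with a median of −3.33. ZAM stood at 1358 and 1511 CPM in the mutant, 58.4 and 56.8 in its control, 58.8 and 63.5 in the knockdown and 71.9 and 48.999 in its control. The knockdown libraries lay within the range of their controls and only the mutant stood apart, with a difference of −4.58 (SE 0.686, adjusted p = 1.19e-09). For gypsy5 the libraries held 872 and 1083 CPM in the mutant, 14.5 and 8.20 in its control, 31.1 and 41.2 in the knockdown and 22.1 and 14.4 in its control. Knockdown libraries were above their controls without passing the test (0.87), and the difference was −5.39 (SE 0.673, adjusted p = 9.76e-13). In gtwin the levels were 5261 and 4941 CPM in the mutant, 79.4 and 43.3 in its control, 43.3 and 50.98 in the knockdown and 17.4 and 23.4 in its control. The knockdown was above its own control and about level with the control of the mutant, and the difference was −5.12 (SE 0.758, adjusted p = 1.01e-09). The others on the list were gypsy itself at −4.05, Tabor at −2.61, Quasimodo at −2.13 and Idefix at −1.45, each a difference of changes past the threshold.

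Tirant was the exception. It stood at 60.1 and 34.4 CPM in the mutant, 4.52 and 1.99 in its control, 16.1 and 183 in the knockdown and 2.30 and 2.93 in its control. The knockdown libraries differed from each other by more than the knockdown differed from the mutant, and the second alone was above both mutant libraries. The difference of 1.45 (SE 0.590, adjusted p = 0.0428) turned to −1.22 (adjusted p = 0.196) without knockdown library 2 and lost its call without any of 6 others, with adjusted p-values of up to 0.653 without mutant control library 1. The call held in 3 of the 18 other settings tried, and in the fit shared with genes the adjusted p was 0.686.

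Other elements among the 10 lowest by the same rule were HMS-Beagle at −4.54, invader3 at −4.49, 3S18 at −4.42 and invader4 at −4.32. Their knockdown changes, between 0.23 and 1.06, did not pass the test, against mutant changes between 4.54 and 5.48. All 10 lowest families kept their call under each of the 18 other settings tried, leaving out each library included.

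Some families rose strongly in both perturbations yet still differed. These were picked after their values were seen, because they lie outside the naming rule. The LTR element copia was the most abundant transposon, at 32941 and 29845 CPM in the mutant, 274 and 204 in its control, 10941 and 3986 in the knockdown and 803 and 737 in its control. The groups did not overlap: the mutant was highest, then the knockdown, then the control with both drivers, then the mutant's control. Its changes were 6.88 and 3.15, with a difference of −3.72 (SE 0.866, adjusted p = 1.48e-04). Burdock, an element expressed in the germline, stood at 1429 and 1357 CPM in the mutant, 24.05 and 13.2 in its control, 291 and 126 in the knockdown and 32.6 and 38.6 in its control, and its difference was −3.64 (SE 0.678, adjusted p = 1.13e-06). The knockdown libraries lay between the mutant and all 4 controls. Transpac and diver had differences of −2.91 and −2.66. In log2 units the knockdown change was 45.9% of the mutant change for copia, 40.05% for Burdock, 44.1% for Transpac and 50.7% for diver, against 20.1% for mdg3 and 22.4% for HeT-A. Scaled by factors from the families, copia and Transpac lost their calls, with adjusted p-values of 0.0537 and 0.0609, and in the fit shared with genes diver lost its own (adjusted p = 0.0737).

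For 9 further families that rose in both comparisons no difference was called. They were Max-element, R2-element, GATE, R1A1-element, transib3, mdg1, gypsy12, P-element and 412, with differences between −1.48 and 0.79. The LTR element 412 stood at 1698 and 1769 CPM in the mutant, 206 and 162 in its control, 532 and 1132 in the knockdown and 44.4 and 61.4 in its control. Each perturbed group was above all 4 controls, the mutant libraries above the knockdown libraries, and the control of the mutant above the other control. Its changes of 3.08 and 3.87 differed by 0.79 (SE 0.685, 95% interval −0.56 to 2.13, adjusted p = 0.366). The P-element, a DNA transposon used as the vector of many fly transgenes, stood at 34.3 and 29.7 CPM in the mutant, 4.19 and 2.60 in its control, 24.6 and 25.2 in the knockdown and 2.46 and 1.88 in its control. Mutant and knockdown libraries lay close together and above all controls, with a difference of 0.32 (SE 0.581, 95% interval −0.82 to 1.46, adjusted p = 0.689). Reads from transgenes that carry P-element sequence could be counted here, and cannot be told apart from those of the element itself. In R2-element, which inserts into ribosomal RNA genes, the knockdown libraries held 4677 and 609 CPM against 530.1 and 532 in the mutant, and the first knockdown library was the highest of the 8. Its difference was −1.14 (SE 0.705, adjusted p = 0.193). Both knockdown libraries lay above both mutant libraries, so the negative sign came from the controls, with the knockdown's control above the mutant's. GATE gained a call without knockdown library 2, at −2.02 (adjusted p = 0.0214). With factors from the families, 412 gained one at 2.13 (adjusted p = 0.0124) and P-element at 1.61 (adjusted p = 0.0126).

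By class, 35 of 61 LTR families were called negative and 1 positive (median −1.50), 6 of 36 non-LTR families were called negative (median −0.77) and 5 of 24 DNA transposons were called negative (median −0.79). Of 10 families known for activity in the germline 4 were called negative, with a median of −1.41. Over all 123 families 37.4% were called negative, with a median of −1.06, so the germline list was close to the whole. When scaled by the families themselves, the non-LTR and DNA classes had positive medians, 0.51 and 0.57, and the LTR class had −0.20.

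Among genes a smaller share was called, in a fit that pooled the spread less strongly than the fit of families. The difference of changes passed the threshold for 68 of 10434 genes, or 0.652%, with 30 higher (0.288%) and 38 lower (0.364%). The median over all genes was 0.01, and 1598 of the 10434 had an unadjusted p under 0.05 (724 higher and 874 lower). Called genes in the gene lists below are to be read against the 0.652%, and unadjusted counts against the 1598 of 10434. In the comparisons themselves 11.4% of genes changed in the mutant (665 up and 528 down) and 1.62% in the knockdown (92 up and 77 down). Of the 68 differences, 28 of the 30 higher and 36 of the 38 lower were at least 1 log2 unit, and all 68 had the same sign in each of the 16 combinations. Of the higher genes, 11 fell in the mutant alone, 9 rose in the knockdown alone and 10 did both. Of the lower genes, 29 rose in the mutant alone, 5 fell in the knockdown alone, 2 did both and 2 rose in both but by less in the knockdown. The last were CG9380, which rose by 4.62 and 1.77, and the unnamed gene FBgn0027341, which rose by 4.84 and 2.63. A further 24 genes rose and 17 fell in both comparisons with no called difference. Few were stable against the loss of 1 library: between 9 and 37 genes were called with 1 library left out, fewest without the first control library of the knockdown and most without its first knockdown library, and 6 genes (w, Dhc98D, Cep164, Rtca, CG14480 and phr6-4) were called in each of the 8 refits. DESeq2 called 789 genes (7.56%), 338 higher and 451 lower, among them all 68, and 120 genes were called with no filter on low counts. In what follows a called gene is one called by edgeR, and DESeq2's counts are given apart.

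**Figure D2:**
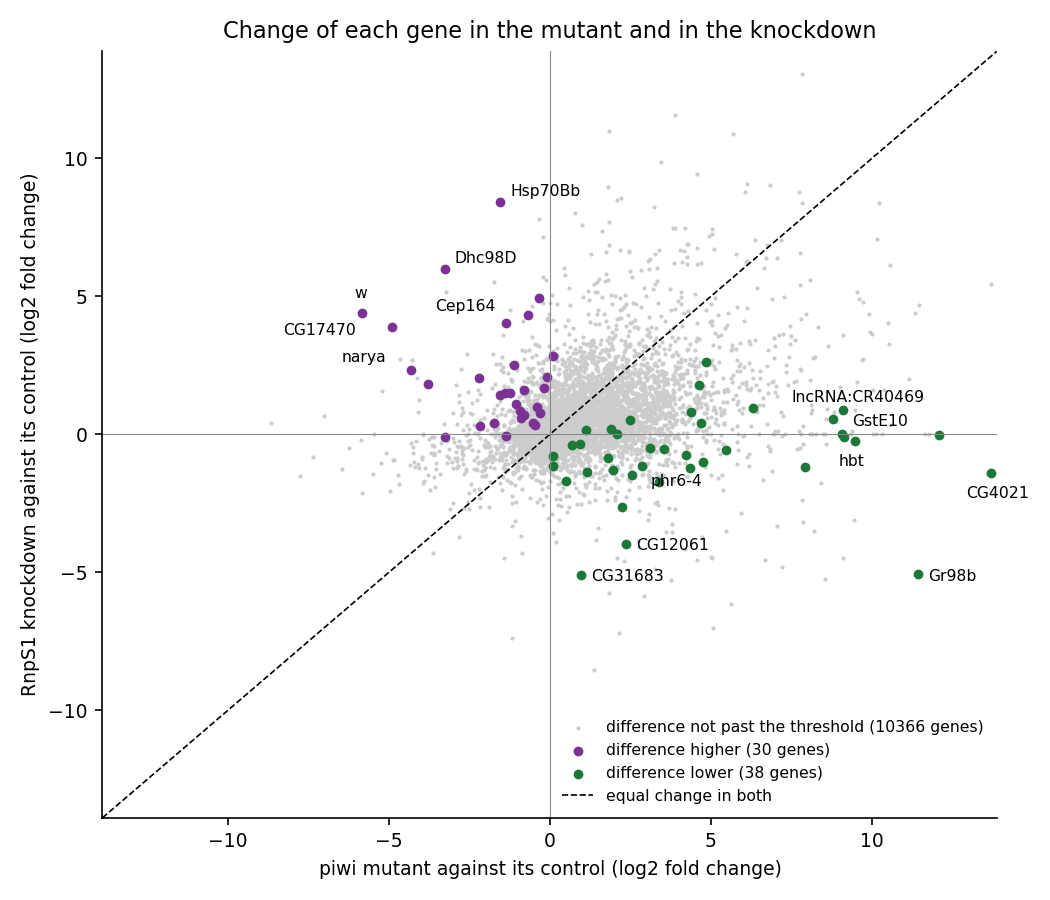
Log2 fold change of each of the 10434 tested genes in the piwi mutant against its control (horizontal axis) and in the RnpS1 knockdown against its control (vertical axis). The 30 genes with a called higher difference (purple) lie above the dashed line of equal change and the 38 with a called lower difference (green) below it; w lies at −5.83 and 4.41.

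The difference of changes can also be written as the difference between knockdown and mutant minus the difference between their controls. Between the perturbed groups 9.89% of genes differed and between the controls 3.85%. In 25 of the 68 genes (8 higher and 17 lower) the controls differed more than the perturbed groups did, and in 34 of them (15 higher and 19 lower) the control difference was itself past the threshold.

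**Figure D3:**
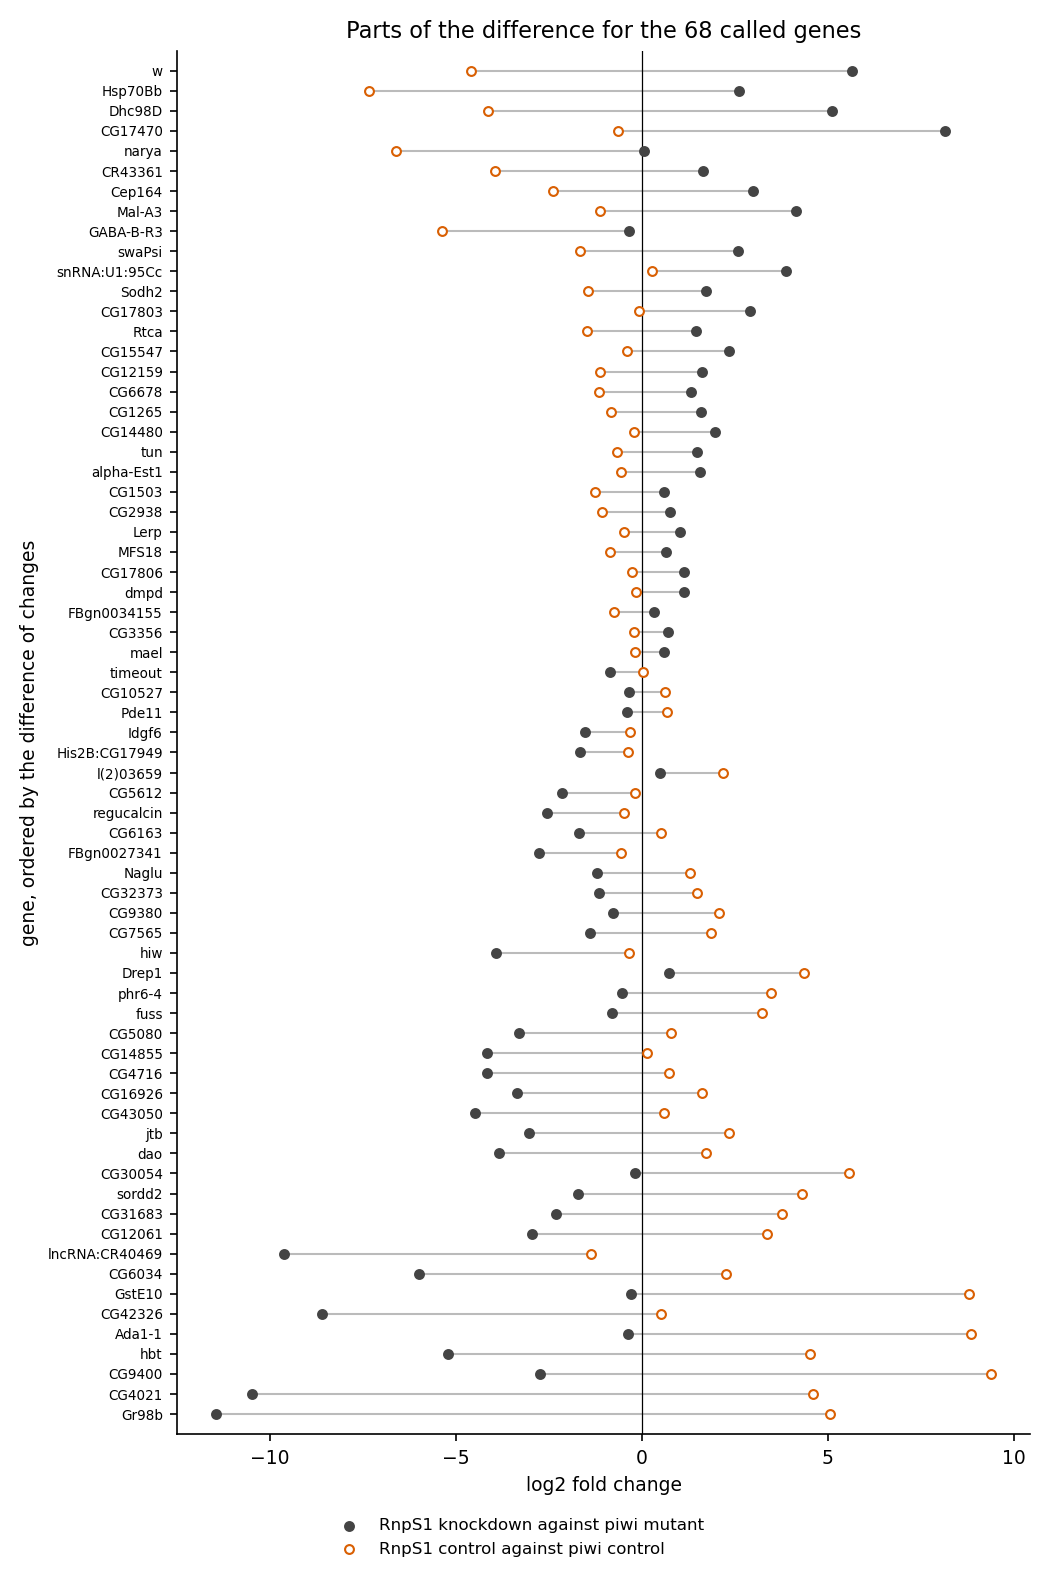
For each of the 68 called genes, the log2 difference between RnpS1 knockdown and piwi mutant (filled) and between the 2 control groups (open). The difference of changes is the filled value minus the open one; for narya and GstE10 the filled points lie near 0, at 0.05 and −0.27, and the open points at −6.59 and 8.79.

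Genes that rose in the mutant and not in the knockdown made up most of the lower set. The uncharacterised gene CG4021 (FBgn0034659, arm 2R) stood at 29.5 and 30.4 CPM in the mutant, 0 and 0 in its control, 0.0264 and 0.0115 in the knockdown and 0.0533 and 0.0413 in its control. Only the mutant libraries held more than 1 CPM. The mutant held 2926 counts against 0, at least 846-fold higher when 3 counts are set for the group at 0, while the knockdown held 3 and its control 6, a ratio of 0.380 with an exact 95% interval of 0.0615 to 1.78. The adjusted p of its difference was 0.00647, and 0.0609 without the first control library of the knockdown. Gr98b, a gustatory receptor gene (FBgn0046887, arm 3R), held 610 counts across the mutant and 0 across its control, at least 176-fold higher. The knockdown held 0 against 8, or 3.51-fold lower with 3 counts set for the knockdown, a change that was not called (adjusted p = 0.0896). The adjusted p of the difference was 0.0220; it rested on few counts and ran from 0.0503 to 0.112 with each library left out, missing the threshold every time. Such intervals cover counting error only, and the bounds only that of the group at 0, since the other count is taken as exact.

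The noncoding RNA lncRNA:CR40469 (FBgn0058469, chromosome X) stood at 331 and 434 CPM in the mutant, 0.748 and 0.782 in its control, 0.830 and 0.161 in the knockdown and 0.413 and 0.144 in its control. The mutant libraries were the highest by far, and the other groups overlapped. It rose by 8.80 in the mutant against 0.57 in the knockdown, with a difference of −8.23 (SE 1.07, adjusted p = 0.0273). CG42326 (arm 2R) stood at 25.8 and 19.6 CPM in the mutant, 0.0534 and 0.106 in its control, 0.0527 and 0.0577 in the knockdown and 0.0799 and 0.165 in its control. It too was high in the mutant alone, with a difference of −9.12 (SE 0.766, adjusted p = 0.00852) that passed in 7 of the 8 refits and reached 0.0533 without mutant library 1. The gene hbt (arm 2L) held 2028 counts across the mutant and 2 across its control, a ratio of 880 with an exact interval of 243 to 7271, and in the knockdown 0.606 and 0.508 CPM against 0.586 and 0.640. CG6034 (arm 3L) held 854 counts against 1, a ratio of 741 (133 to 29307), and dao (arm 2L) differed by −5.58 (SE 0.589, adjusted p = 0.0164). With 1 library left out, hbt, CG6034, dao and lncRNA:CR40469 missed the threshold in 6, 8, 6 and 6 of 8 refits, with highest adjusted p-values of 0.0801, 0.153 and 0.0882 without mutant library 1 for the first 3 and 0.222 without knockdown control library 1 for the last.

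Outside the naming rule, hiw, which encodes the ubiquitin ligase Highwire known from synapse growth, stood at 135 and 144 CPM in the mutant, 7.05 and 5.01 in its control, 6.72 and 11.4 in the knockdown and 3.31 and 6.33 in its control. Mutant libraries were above all others. Its difference was −3.57 (SE 0.531, adjusted p = 0.0425). The calcium-binding protein gene regucalcin differed by −2.07 (SE 0.232, adjusted p = 0.0167), with 125 and 172 CPM in the mutant and between 22.2 and 33.2 in the other 6 libraries. The histone gene His2B:CG17949 differed by −1.31 (adjusted p = 0.0293), but histone genes are near-identical repeats and their counts are uncertain. These 3 were chosen after their values were seen.

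In a second set of lower genes the control of the mutant was the group that stood apart. GstE10, an epsilon glutathione transferase (FBgn0063499, arm 2R), stood at 41.9 and 17.8 CPM in the mutant, 0.0802 and 0.0211 in its control, 26.3 and 22.2 in the knockdown and 19.1 and 25.5 in its control. The control of the mutant was at 4 counts in all, and the other 3 groups overlapped. The difference of −9.06 (SE 0.803, adjusted p = 0.0108) was made of −0.27 between the perturbed groups and 8.79 between the controls; without mutant control library 2 its adjusted p was 0.0689. CG9400 (chromosome X) held 0 counts in that control and 973 in the mutant, at least 281-fold higher, with 1.36 and 1.55 CPM in the knockdown and 1.05 and 1.69 in its control. The perturbed groups differed by −2.73 on the log2 scale. Its adjusted p of 0.0173 missed the threshold in all 8 refits, at up to 0.0860 without mutant control library 2. CG30054 (arm 2R) stood at 5.72 and 5.10 CPM in the mutant, 0.214 and 0.148 in its control, 5.61 and 3.89 in the knockdown and 9.27 and 8.38 in its control. Again the other 3 groups lay together well above the control of the mutant; the difference was −5.75 (SE 0.549, adjusted p = 0.0146), with −0.17 between the perturbed groups and 5.58 between the controls. For sordd2 (chromosome X) these parts were −1.72 and 4.32 in a difference of −6.03 (adjusted p = 0.0173). CG30054 and sordd2 missed the threshold in 4 and 6 of 8 refits, at up to 0.0744 without mutant control library 2 and 0.112 without mutant control library 2.

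The photolyase gene phr6-4 (FBgn0016054, arm 2L), whose product repairs DNA photoproducts in light, had the smallest adjusted p of all genes. It stood at 101 and 82.7 CPM in the mutant, 11.4 and 11.1 in its control, 62.3 and 62.7 in the knockdown and 120.4 and 133 in its control. No groups overlapped: the control with both drivers was highest, then the mutant, then the knockdown, and the control of the mutant was lowest. It rose by 2.87 in the mutant (adjusted p = 7.49e-04) and had a called change of −1.13 in the knockdown (adjusted p = 0.0141), so that the comparisons went opposite ways. The difference was −4.002 (SE 0.170, adjusted p = 6.31e-04), with −0.53 between the perturbed groups and 3.47 between the controls. Its adjusted p was at most 0.00909 with each library left out in turn. Naglu, a lysosomal N-acetylglucosaminidase gene, was the other gene that rose in the mutant (1.15) and fell in the knockdown (−1.36), with a difference of −2.51 (adjusted p = 0.0167), of which −1.20 lay between the perturbed groups and 1.31 between the controls. Naglu was named after its values were seen.

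Genes that fell in the knockdown alone numbered 5. CG12061 (chromosome X), the one that met the naming rule, stood at 2.36 and 1.85 CPM in the mutant, 0.454 and 0.275 in its control, 0.395 and 0.138 in the knockdown and 4.05 and 3.61 in its control. The control of the knockdown was above the mutant, and the remaining groups were lowest and overlapped. Its difference was −6.32 (SE 0.898, adjusted p = 0.0387), which missed the threshold in all 8 refits at up to 0.169 without mutant control library 2. Its parts were −2.95 between the perturbed groups and 3.37 between the controls. Of the others, named because they are few, Idgf6, a chitinase-like growth factor, stood at 309.5 and 322 CPM in the mutant, 256 and 275 in its control, 112 and 103 in the knockdown and 227 and 210.3 in its control. Only the knockdown libraries were low, at about the same level in both. The difference was −1.23 (SE 0.137, adjusted p = 0.0167), with a control difference of −0.30. The timeless paralogue timeout differed by −0.89 (SE 0.132, adjusted p = 0.0425), CG6163 by −2.21 (SE 0.216, adjusted p = 0.0154) and CG31683 by −6.05 (SE 0.881, adjusted p = 0.0408). In all 3 the knockdown libraries were the lowest of the 8, and for CG31683 the controls differed by 3.76 against −2.29 between the perturbed groups.

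The largest positive difference was that of w (FBgn0003996, chromosome X), the white gene, whose product carries eye pigment precursors and whose sequence is the usual marker of fly transgenes. It stood at 7.005 and 4.12 CPM in the mutant, 299 and 266 in its control, 208 and 338 in the knockdown and 11.1 and 12.8 in its control. The control of the mutant and the knockdown overlapped at a high level, and the mutant and the control of the knockdown lay at a low level. The difference was 10.23 (SE 0.492, adjusted p = 7.42e-04), with 5.65 between the perturbed groups and −4.59 between the controls. Reads of marker genes carried by transgenes could be counted here, so the transgene content of a stock and the endogenous gene cannot be told apart.

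Dhc98D (FBgn0013813, arm 3R), a dynein heavy chain gene, stood at 0.600 and 0.942 CPM in the mutant, 6.36 and 7.06 in its control, 23.1 and 30.1 in the knockdown and 0.439 and 0.330 in its control. Knockdown libraries were highest, followed by the control of the mutant, and the remaining libraries were all under 1 CPM. It fell by 3.27 on the log2 scale in the mutant and rose by 5.98 in the knockdown, with a difference of 9.26 (SE 0.535, adjusted p = 0.00177). Cep164 (chromosome X), named for a human protein of the centriole, stood at 3.51 and 3.61 CPM in the mutant, 8.50 and 7.95 in its control, 27.02 and 29.1 in the knockdown and 1.36 and 1.84 in its control. The groups stood in the same order as for Dhc98D, again without overlap. Its difference was 5.39 (SE 0.370, adjusted p = 0.00347). Rtca (chromosome X), an RNA 3′-terminal phosphate cyclase gene, stood at 39.5 and 36.04 CPM in the mutant, 78.3 and 101 in its control, 98.6 and 107 in the knockdown and 34.8 and 31.5 in its control. The control of the mutant and the knockdown overlapped at the higher level, the remaining groups lay at the lower one, and the difference was 2.92 (SE 0.200, adjusted p = 0.00347). In all 3 of these genes, and in w, the control difference was called and opposite in sign to that between the perturbed groups.

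CG14480 (FBgn0034242, arm 2R) rose in the knockdown alone. It stood at 54.8 and 46.9 CPM in the mutant, 45.3 and 51.5 in its control, 204 and 186 in the knockdown and 41.6 and 43.8 in its control. The knockdown libraries were the only ones above 60 CPM, and the other 3 groups lay between 41.6 and 54.8. Its change was −0.09 in the mutant and 2.08 in the knockdown, with a difference of 2.16 (SE 0.157, adjusted p = 0.00422) and a control difference of −0.20. Mal-A3 (arm 2R), a maltase gene, stood at 0.321 and 0.353 CPM in the mutant, 0.427 and 0.338 in its control, 6.71 and 5.26 in the knockdown and 0.186 and 0.165 in its control. It was likewise high in the knockdown alone, with a difference of 5.29 (SE 0.648, adjusted p = 0.0220) that missed the threshold in all 8 refits, at up to 0.164 without mutant library 1. The U1 RNA gene snRNA:U1:95Cc, of the particle that recognises the start of introns, stood at 10.4 and 12.5 CPM in the mutant, 14.7 and 29.4 in its control, 213 and 119.7 in the knockdown and 30.2 and 23.95 in its control. Knockdown libraries were highest, with a difference of 3.61 (SE 0.531, adjusted p = 0.0417) that missed the threshold in 7 of 8 refits, at up to 0.193 without mutant library 1. U1 genes are near-identical, so its count is uncertain.

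CG17470 (arm 2L) went opposite ways in the comparisons. It stood at 0.0428 and 0.0196 CPM in the mutant, 0.855 and 0.930 in its control, 8.92 and 9.77 in the knockdown and 0.346 and 0.825 in its control. The knockdown libraries were highest and the mutant libraries lowest, with all 4 control libraries between them. The mutant held 3 counts against 76, which made it 29.2-fold lower with an exact interval of 9.62 to 145, and the knockdown change was 3.89 (adjusted p = 0.0303). The adjusted p of the difference, 0.0154, ran up to 0.0801 without mutant library 1 and missed the threshold in 5 of 8 refits. The swallow pseudogene swaPsi (chromosome X) differed by 4.24 (SE 0.493, adjusted p = 0.0173), but reads shared with swallow make its count uncertain. Sodh2 (arm 3R), a sorbitol dehydrogenase gene, fell in the mutant alone and differed by 3.16 (SE 0.353, adjusted p = 0.0167). Both missed the threshold in 7 of 8 refits, at up to 0.0971 without mutant library 1 and 0.0905 without mutant control library 2.

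**Figure D4:**
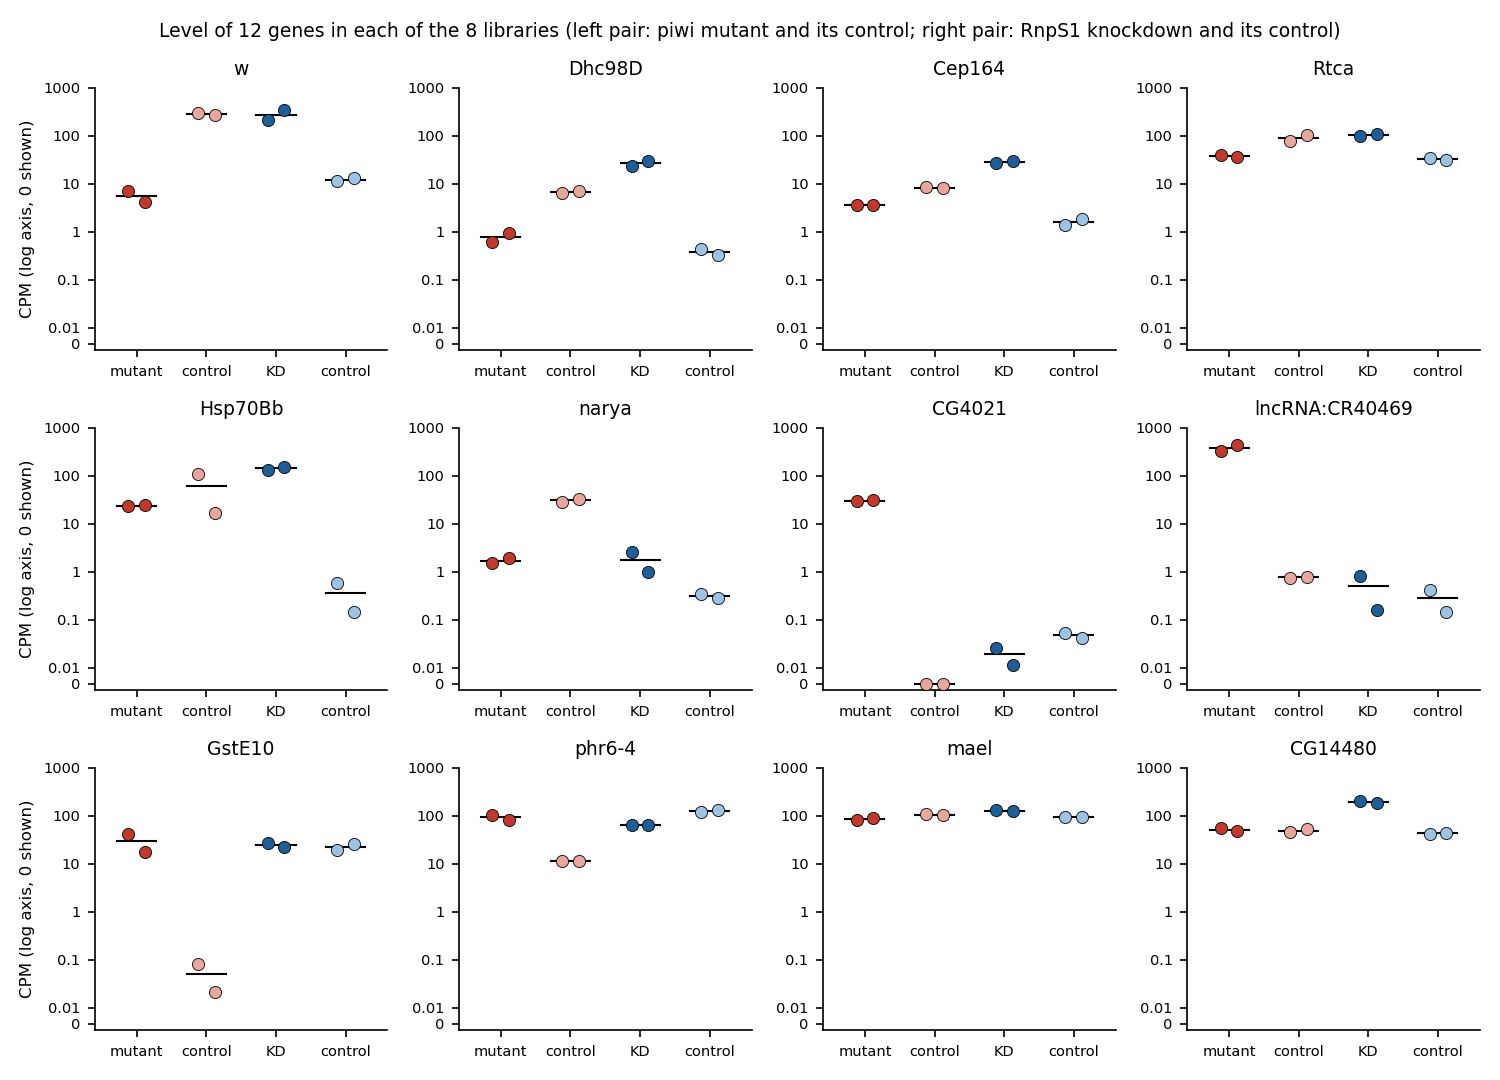
Level of 12 genes in each of the 8 libraries, in CPM on a log axis that also shows 0, with a bar at the mean of each group of 2; red stands for the piwi mutant and its control, blue for the RnpS1 knockdown and its control. In w the high libraries are the control of the mutant (299 and 266) and the knockdown (208 and 338), while in CG4021 only the mutant is above 1 CPM and in GstE10 only the control of the mutant is below it.

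For several higher genes the difference came mainly from the controls. narya (FBgn0031018, chromosome X), a RING-domain gene that acts in meiotic crossing over, stood at 1.52 and 1.88 CPM in the mutant, 28.2 and 32.9 in its control, 2.53 and 0.969 in the knockdown and 0.346 and 0.289 in its control. Its level was high only in the control of the mutant. The perturbed groups differed by 0.05 and the controls by −6.59, giving a difference of 6.65 (SE 0.684, adjusted p = 0.0154). Hsp70Bb (arm 3R), an inducible chaperone gene, stood at 22.98 and 23.97 CPM in the mutant, 106 and 16.4 in its control, 133 and 152 in the knockdown and 0.572 and 0.144 in its control. The control of the knockdown was the only group under 1 CPM, and the libraries of the mutant's control lay on both sides of the mutant. The difference of 9.95 (SE 1.31, adjusted p = 0.0287) held 2.63 between the perturbed groups and −7.33 between the controls, and Hsp70 genes are near-identical copies whose counts are uncertain. GABA-B-R3 (arm 2L), a metabotropic receptor gene for the transmitter GABA, stood at 7.45 and 7.36 CPM in the mutant, 7.21 and 14.02 in its control, 5.03 and 6.45 in the knockdown and 0.253 and 0.268 in its control. Again only the control of the knockdown was low, and the difference was 5.02 (SE 0.584, adjusted p = 0.0173) with −0.34 between the perturbed groups and −5.36 between the controls. CR43361, on chromosome 4, differed by 5.59 (SE 0.611, adjusted p = 0.0167) with 1.64 between the perturbed groups and −3.94 between the controls. With 1 library left out narya and Hsp70Bb missed the threshold in 6 of 8 refits and GABA-B-R3 and CR43361 in 7, at up to 0.0860 without mutant control library 2 and, without mutant library 1, 0.167, 0.131 and 0.107.

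In the piRNA pathway lists edgeR called 1 gene, where 0.652% of all genes tested were called. A count this small does not set these lists apart. Of the 13 nuclear silencing genes tested, piwi itself among them, 1 was called, mael, and the list had a median of 0.14, with 11 positive values. Maelstrom acts with Piwi in transcriptional silencing and in the nuage. mael stood at 81.8 and 86.98 CPM in the mutant, 105 and 103 in its control, 129 and 125 in the knockdown and 92.5 and 93.6 in its control. The mutant libraries were lowest and the knockdown libraries highest, and no groups overlapped. It fell by 0.46 on the log2 scale in the mutant (adjusted p = 0.0207) with a knockdown change of 0.34 (adjusted p = 0.0896). The difference was 0.80 (SE 0.112, adjusted p = 0.0380), the smallest of the 30 higher ones. The call was lost in all 8 refits, at up to 0.218 without mutant library 1. No gene was called among 12 of primary piRNA biogenesis (median −0.11) and 14 of piRNA cluster transcription and export (median 0.01), and the ping-pong and nuage list held only mael itself (12 tested, median −0.04). The median of the cluster list changed sign under 7 of 15 settings and that of the ping-pong list under 3. DESeq2 called 3 of the nuclear silencing list and 1 of each of the other 3. Bootlegger's gene Boot, which exports cluster transcripts, had a difference of 0.78 (adjusted p = 0.0766, or 5.71e-07 by DESeq2). In these lists the unadjusted p was under 0.05 for 3 of 13 nuclear silencing genes, 2 of 12 primary biogenesis genes, 2 of 12 ping-pong genes and 1 of 14 cluster genes. Over all genes tested it was under 0.05 for 1598 of 10434.

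In the lists of RnpS1 partners, decay, splicing, MAP kinase and heterochromatic genes edgeR called no difference and DESeq2 a few. Over all genes tested these methods called 0.652% and 7.56%, so lists this short can hold no edgeR call whatever their function. The exon junction and ASAP list, which holds RnpS1 itself at −2.95, had 0 of 8 called (median 0.04, negative in 3 settings). It had 4 members with an unadjusted p under 0.05, 2 in each direction, and RnpS1 was among the lower ones. Acn, which encodes the ASAP subunit Acinus, stood at 145 and 134 CPM in the mutant, 172 and 174 in its control, 249 and 277 in the knockdown and 193 and 204.6 in its control. The knockdown libraries were highest and the mutant libraries lowest, with a difference of 0.76 (SE 0.145, adjusted p = 0.0830). Nonsense-mediated decay genes had 0 of 6 called (median 0.26, 3 with an unadjusted p under 0.05), with Smg5 at 0.71 and Smg6 at 0.69. SR and splicing proteins had 0 of 16 (median −0.14), and Sxl, the sex-determination splicing regulator, had −1.04 (adjusted p = 0.135). The EGFR and MAP kinase list had 0 of 18 (median 0.15, −0.02 without knockdown library 2). Genes in heterochromatin, many with long introns, had 0 of 16 called but 6 with an unadjusted p under 0.05, all negative, and a median of −0.41 that lay between −0.68 and −0.26 with 1 library left out. Dbp80, an RNA helicase gene among them, stood at 146 and 138 CPM in the mutant, 92.5 and 89.1 in its control, 87.3 and 48.4 in the knockdown and 158 and 132 in its control. The knockdown libraries were the lowest of the 8, and the difference was −1.70 (adjusted p = 0.0929), or −2.17 without knockdown library 1 (adjusted p = 0.0178). Over the other leave-outs its adjusted p ran from 0.0527 to 0.283. DESeq2 called 3 of the exon junction and ASAP list (1 higher, 2 lower), 2 of nonsense-mediated decay, 1 of splicing, 1 of the MAP kinase list and 4 of the heterochromatic list, all 4 lower. They included RnpS1 itself (adjusted p = 1.44e-07), Acn (1.60e-04), Smg5 (0.0393), Smg6 (0.0483), Sxl (9.46e-04) and Dbp80 (4.52e-05).

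Genes of late oogenesis had mostly positive differences, none called by edgeR. All 15 chorion genes had positive differences with a median of 2.71, 0 called and 4 with an unadjusted p under 0.05. The mutant libraries were below the other 6 in the summed level given above, with the first far below the second. The largest was Cp7Fa at 4.42 (SE 1.39, adjusted p = 0.209). The list median ran from 1.58 to 6.89 with 1 library left out. In whole ovaries, fewer cells of a type and less RNA per cell cannot be told apart. Vitelline membrane genes had 0 of 11 called and a median of 0.80, or −0.59 without knockdown library 2, with Vm26Ac at 5.21 (adjusted p = 0.119, or 0.00625 by DESeq2). DESeq2 called 1 chorion and 1 vitelline membrane gene, both higher. Yolk protein genes had 0 of 4 and a median of 0.02, whose sign changed in 8 of 15 settings; DESeq2 called 0.

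In the germline and somatic programmes of the ovary edgeR called 1 gene. The oocyte axis and germ plasm list had 0 of 19 called (median 0.07), with osk, the germ plasm organiser, at 0.59 (adjusted p = 0.156). Germline differentiation genes had 0 of 13 (median −0.32, 4 with an unadjusted p under 0.05). The differentiation factor bam stood at 158 and 152 CPM in the mutant, 48.5 and 73.98 in its control, 55.2 and 31.6 in the knockdown and 32.7 and 40.6 in its control. Mutant libraries were above all others, and the difference was −1.06 (SE 0.401, adjusted p = 0.276). Meiosis genes had 1 of 15, narya, with a median of 0.06. The JAK/STAT list had 0 of 10 (median 0.21), the niche and early follicle cell list 0 of 14 (median −0.06), cell cycle and replication 0 of 26 (median 0.15) and DNA repair 0 of 18 (median 0.15), where tefu, the fly ATM kinase gene, had −0.86 (adjusted p = 0.0777). Ecdysone genes had 0 of 16 (median −0.05), and this median and the medians of the niche, JAK/STAT, oocyte axis and meiosis lists changed sign in at least 1 setting. DESeq2 called 2 oocyte axis genes, 3 germline differentiation genes, 2 meiosis genes, 0 JAK/STAT genes and 1 gene in each of the niche, cell cycle, repair and ecdysone lists.

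Stress and death genes gave single members. Of 16 heat shock genes tested Hsp70Bb alone was called; the median was 0.50, or −0.28 without mutant control library 1. The death and p53 list had 0 of 13 and a median of −0.40, and its largest member was rpr, the cell death activator reaper, which stood at 5.55 and 5.81 CPM in the mutant, 0.187 and 0.148 in its control, 1.32 and 0.484 in the knockdown and 0.320 and 0.248 in its control. The mutant libraries were highest and did not overlap the others. Its difference was −3.38 (SE 0.841, adjusted p = 0.139). Of 13 epsilon glutathione transferases GstE10 was called (median −0.56), and all 6 metallothionein genes had negative differences (median −2.05, 0 called). MtnB held 5303 counts across the mutant and 3 across its control, a ratio of 1534 with an exact interval of 525 to 7441. Its difference was −8.74 by DESeq2 with all 8 libraries, and 0.011 in edgeR without the first control library of the knockdown. Cytosolic ribosomal protein genes had 0 of 41 called, with 32 positive and a median of 0.20, and genes of the mitochondrial genome 0 of 15 with a median of 0.32 that changed sign in 3 settings. The immune list had 0 of 19 and a median of −0.45 that became positive without mutant library 2 or knockdown library 2. In these lists DESeq2 called 5 heat shock genes, 2 death genes, 2 glutathione transferases, 1 metallothionein (MtnB, adjusted p = 0.0409), 3 ribosomal protein genes and 0 mitochondrial or immune genes.

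In the siRNA and microRNA list 0 of 11 were called (median −0.06, positive in 2 settings), against 1, AGO2, by DESeq2. Dcr-2, the nuclease of the siRNA pathway, stood at 269.6 and 345 CPM in the mutant, 3182 and 834 in its control, 197 and 199 in the knockdown and 263 and 245 in its control. The libraries of the mutant's control were highest and differed from each other, and all others lay together. The labels mention no change to Dcr-2. The difference was 2.40 (SE 0.743, adjusted p = 0.203), the controls differed by −3.01 (adjusted p = 0.0373), and without mutant control library 2 the difference was 3.06 (adjusted p = 0.0148).

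Marker lists of other tissues had mostly negative differences, with no gene called by edgeR. Of 17 muscle genes tested, 16 had negative differences (median −2.17, 0 called). The 17 summed to 2458 and 3983 CPM in the mutant, 1162 and 702 in its control, 935 and 1691 in the knockdown and 726 and 1679 in its control. Mutant libraries were above the other 6. Of 12 haemocyte and basement membrane genes 11 were negative (median −2.12, 0 called), with sums between 638 and 1904 CPM, and of 11 fat body genes 10 were negative (median −3.74, 0 called), with sums between 757 and 3913 CPM that were highest in both libraries of the knockdown's control and overlapped between the other 3 groups. Without single libraries these medians ran from −3.52 to −0.18, −3.30 to −0.10 and −4.62 to −0.32. The fat body list holds the yolk protein gene Yp1, so its sums need not reflect fat body cells. In the second library of the mutant's control it summed to 1429 CPM although 4 of its genes had no counts. At 0 counts were 4 fat body genes in the second library of the mutant's control, 1 in the first knockdown library, 1 muscle gene in the first mutant library, 1 muscle and 1 haemocyte gene in the second library of the mutant's control and 1 haemocyte gene in the first library of the knockdown's control. Gut protease and amylase genes had 12 of 13 negative (median −5.49, 0 called) with sums of 1.29 and 47.8 CPM in the mutant, 1.34 and 1.88 in its control, 88.2 and 118 in the knockdown and 317 and 0.784 in its control. The high libraries were both of the knockdown, the second of the mutant and the first of the knockdown's control. The median became 3.73 without knockdown control library 1 and 0.52 without mutant library 2. Testis genes, 5 of 14 tested, summed to between 2.33 and 10.9 CPM with a median of −0.66 and 0 called, and oviduct and spermatheca genes, 2 of 8 tested, to at most 3.40 CPM with 0 called. DESeq2 called 1 muscle, 2 fat body, 4 haemocyte, 1 gut and 1 oviduct or spermatheca gene, all lower, and 0 testis genes; among them were NimC1 (adjusted p = 0.00116), eater (0.00763), betaTry (0.0347) and Send1 (0.0353). The part of such cells in the genes called lower was not tested.

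**Figure D5:**
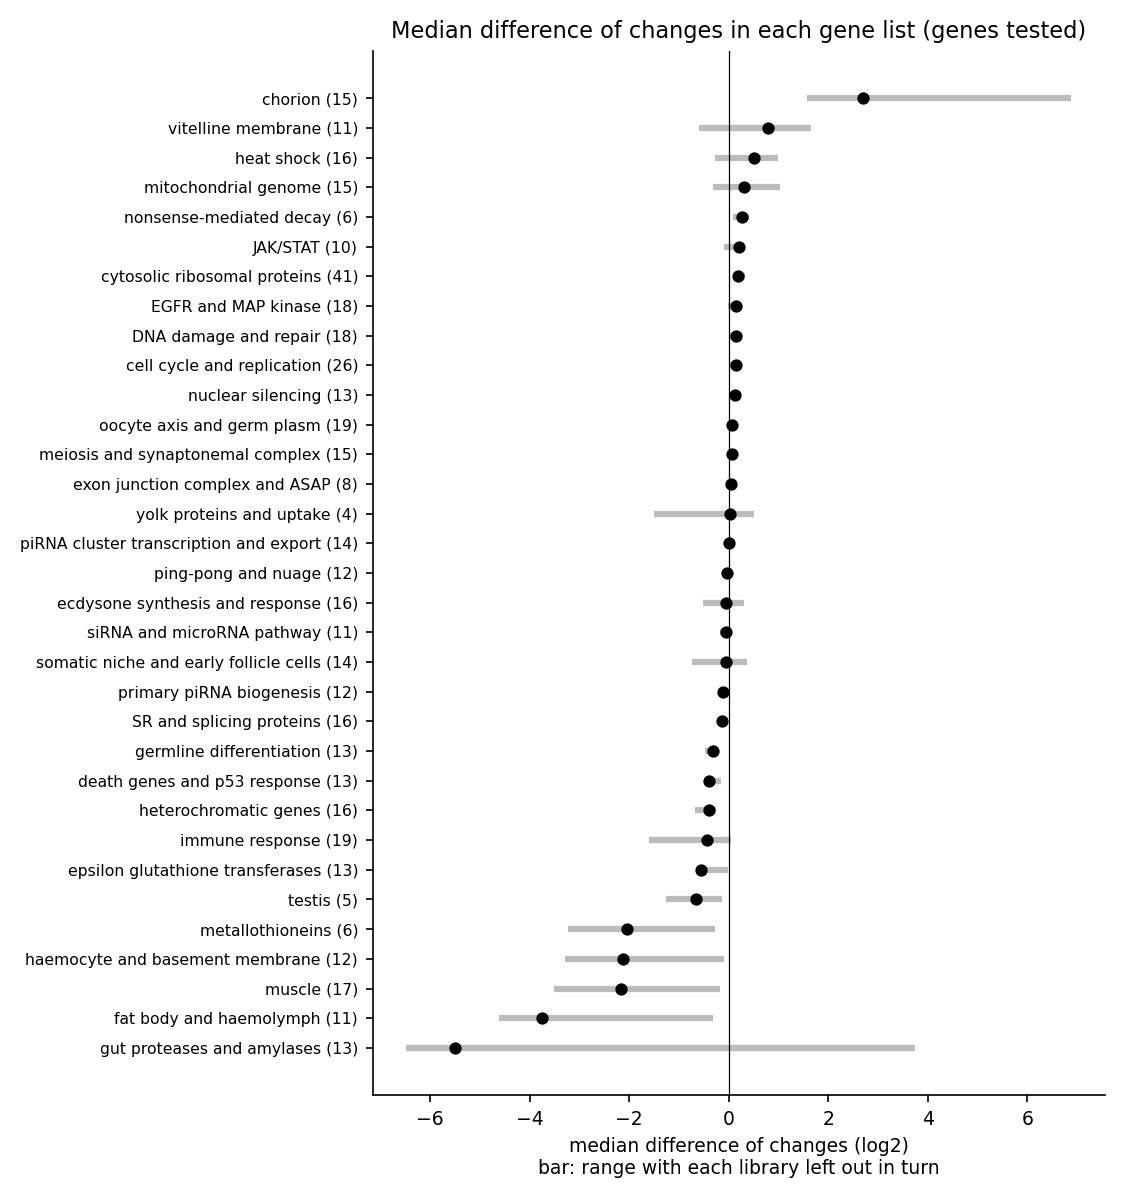
Median difference of changes of each gene list (points; number of genes tested in brackets), with a bar for the range of that median when each library is left out in turn. Chorion genes sit at 2.71, most ovarian and pathway lists within 0.5 of 0, and markers of muscle, fat body and gut between −2.17 and −5.49 with long bars.

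By chromosome arm, the median difference lay between −0.03 and 0.05 on 2L, 2R, 3L, 3R and X. On chromosome 4, which is small and largely heterochromatic, it was −0.47 over 83 genes (quartiles −1.11 and −0.04), from median changes of 0.19 in the mutant and −0.17 in the knockdown; 2 of these genes were called, CR43361 higher and fuss, a Ski family gene, lower at −4.04 (adjusted p = 0.0220), of which 3.24 lay between the controls. By longest annotated intron, the median was −0.01 for genes with none, 0.02 under 1 kb, −0.00 from 1 to 10 kb and −0.13 over 10 kb (885 genes, 2 higher and 6 lower). These are descriptions across genes, which are not replicates.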

How the data were processed

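RNA of whole ovaries was measured by strand-specific sequencing after depletion of ribosomal RNA, per the labels' protocols. The authors deposited, for each of 8 libraries, raw read counts per gene and raw read counts per transposon family, neither normalized nor pooled. Per the submitters' processing notes, HTSeq 0.5.3p9, DESeq, TopHat2 2.0.9 and CASAVA (1.8 and 1.8.2) were used with dm3 and BDGP5; how transposon reads were aligned is not given in the sources used here. Symbols (15002 of 15682 identifiers), arms and intron lengths came from the later BDGP6.54 annotation, so no coordinates are printed. Of the counts in genes, outside genes or ambiguous, those outside genes made up 1.91% to 10.7% and ambiguous ones 1.19% to 1.63%. Alignments to several places made up 43.2% to 66.0% of those counts and these alignments together. The 5 kinds of entries that name no gene were left out.

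Counts were tested in edgeR 4.0.16 (R 4.3.3) by quasi-likelihood, with 1 term per group over all 8 libraries (4 residual degrees of freedom). Library sizes and TMM factors came from gene counts. Genes passed filterByExpr (10434); families needed 10 counts (123) and were fitted apart with the same library sizes. Adjustment by Benjamini-Hochberg treated genes and families as separate sets. Bounds set a group at 0 to 3 counts over the group. No pair of replicates was identical over all genes.

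Named were piwi, RnpS1, rl and w; the 12 highest and 12 lowest called differences with a mean of at least 1 CPM and 1 sign in all 16 combinations; the 5 smallest adjusted p-values per direction; the 10 highest and lowest families; and up to 5 called members of each list, or the 2 largest where none was called. The members, lists and rules were chosen with earlier results of these data known, and list entries were respelled to the symbols of the annotation. Alternatives were other scalings, other filters, a replicate block, each library left out, DESeq2 1.42.0 and, for families, other library sizes and a fit shared with genes. The procedure was tested on simulated data.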

Additional observations from a re-analysis of the deposited data

Results flagged for a closer look

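Reads left out of the gene counts differed between the mutant and its control. Alignments to more than 1 place made up 65.3% ± 1.00 (SD, n = 2) of the gene table entries in the piwi mutant and 47.3% ± 5.81 in its control, and the libraries of these groups did not overlap. Ambiguous reads, as a share of the entries without those alignments, were 1.58% ± 0.0823 in the mutant and 1.41% ± 0.123 in the control, again without overlap. In the knockdown alignments to more than 1 place were 58.0% ± 10.9 and overlapped those of its control, 55.1% ± 14.4.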

How the results depend on the processing

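All 68 called genes kept their direction under all settings tried, but between 9 and 37 genes were called with 1 library left out, 120 without a filter on low counts and 789 by DESeq2. Other scalings and the CPM filter gave 66 to 79 calls. TMM factors computed before the filter, an alternative chosen after seeing the data, gave 69. Families called ran from 28 to 72 with 1 library left out and were 23 in the fit shared with genes; 28 of the 47 were called in every leave-out. The family median ran from −1.59 to −0.76 with 1 library left out and was 0.26 with factors from the families. Depth limits genes at a few counts, whose folds are given as bounds.

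Deviations of same-numbered libraries from their group means correlated at −0.21 between the mutant and its control, 0.32 between the knockdown and its control, and 0.26, 0.16, −0.34 and −0.37 between the other pairs of groups (8236 genes). Not every pair was positive, so the numbers were not taken to pair the libraries. With a replicate block 47 genes and 36 families were called, 43 of the 68 genes and 36 of the 47 families among them, and no sign of a called gene changed.

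Among named genes and families, signs that turned belonged to ones with no called difference, apart from Tirant (−1.22 to 2.33 with 1 library left out). Over the same refits Yp1 ran from −1.72 to 0.18, Yp3 from −1.38 to 1.03, chinmo from −0.38 to 1.58, aly from −1.88 to 3.59, MtnB from −9.71 to 0.011, MtnD from −9.08 to 1.94, mdg1 from −0.98 to 0.20 and P-element from −0.067 to 0.63. With factors from the families mdg1 was 0.80 and GATE 0.52. The causes were not tested.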
